A study of Bos taurus with 63 samples.

Results

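In 95 genes of bovine blood leukocytes, expression differed widely between animals of the same group, both in dams and in newborn calves, while the mean level of dams and calves was similar. They were selected among 23010 genes of the read counts. Values were log2 CPM, the log2 of read counts scaled to a common total (CPM) after TMM normalization, with a prior count of 2. Over 19 control dams and 30 control calves together, the mean count reached 14 or more in 11762 genes. A gene was selected when the SD of its log2 CPM was at least 1 in the dams and at least 1 in the calves and the group means differed by less than 1. Beforehand, 3 identifiers (ENSBTAG00000013919, ENSBTAG00000021077 and ENSBTAG00000009656) were left out by name, and 0 of these 3 met all limits. The 95 genes were thus chosen by the SDs and means in control animals, and these values are described without a test.

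The study investigated dams and their female calves of the Holstein breed with regard to heat stress (HS). Blood was sampled from dry dams in late pregnancy and from newborn calves, red cells were lysed, and polyadenylated RNA of the remaining leukocytes was sequenced. The groups used here were 19 dams without HS (control dams), 12 dams with direct HS, i.e., a mean temperature-humidity index of 60 or more during the preceding day, and 30 calves labelled without HS (control calves). For calves, the paper defines both direct HS of the calf and maternal HS in late gestation. The treatment label of the calves does not say which is meant. A further calf was labelled with HS (HS-IU_2048), and for a further dam (HS-IU_1804) the labels give no HS status. In the labels, the groups differ in age class and HS, and every library has the same batch label. The sampling period of each animal is not in the labels. The libraries held between 4340680 and 19584521 reads on genes. The labels do not tie a calf to its dam, and relatives can be among the animals, so that transmission from dam to calf was not tested. The names of the genes could not be assigned, because the identifiers of the counts are Ensembl identifiers and the annotation used here holds 0 of them among its 37063 genes. The labelled tissue was therefore not checked with marker genes.

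As background, transcripts that differ between healthy animals of one breed can show different forms of variation. A transcript can be present in some animals and nearly absent in others, as is known for genes with deletions, copy number differences or alleles that abolish transcription or splicing, and for polymorphic immune gene families, in which reads of a diverged allele may also fail to map. Or a transcript can be graded, as is known for genes of one leukocyte type, whose blood levels follow the share of this cell type, and for genes that are induced by infection, interferons or hormones around calving. Genes of one cell type or one response then move together across animals. In RNA from bulk blood, fewer cells of a type and less RNA per cell cannot be told apart.

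In control dams, 264 genes (2.24% of 11762) had an SD of at least 1, and in control calves, 597 genes (5.08%) had. Both limits were met by 195 genes. Of these, 73 had a mean that was higher in calves by 1 or more, and 27 had a mean that was higher in dams by 1 or more. The remaining 95 genes were the members of the selection, and the mean was higher in calves in 63 and higher in dams in 32 of them. The SD of the members ranged from 1.00 to 2.11 (median 1.16) in control dams and from 1.00 to 2.08 (median 1.25) in control calves. Over all 11762 genes, the median SD was 0.31 in control dams and 0.39 in control calves. The SD was larger in calves than in dams for 58 members. Many members were close to the limits, as the plot of both SDs shows. Just inside were ENSBTAG00000001183 (SD 1.00 in dams), ENSBTAG00000030198 (1.00 in calves) and ENSBTAG00000000336 (1.00 in dams). Just outside were ENSBTAG00000051951, ENSBTAG00000048778 and ENSBTAG00000000820, with SDs of 0.996, 0.995 and 0.994 in calves. At the limit of the means, ENSBTAG00000017981 with a difference of 0.996 was inside and ENSBTAG00000052659 with a difference of -1.0 (calves minus dams) was outside.

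**Figure D1:**
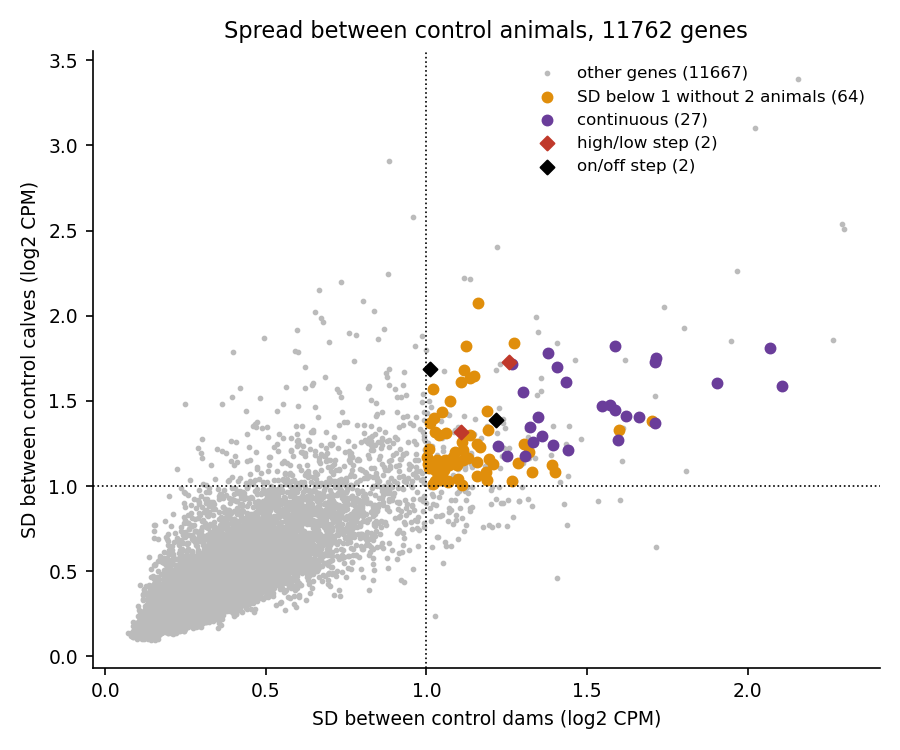
SD of log2 CPM between 19 control dams (x axis) and between 30 control calves (y axis), with 1 point per gene, for 95 members in colour by pattern and 11667 other genes in grey. Dotted lines mark the limit of 1. Most members lie just above the limits, and the continuous members reach the largest SDs in dams. Grey points above both limits are genes whose group means differed by 1 or more or that were left out by name.

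Low expression was common among the members. The median CPM was below 5 in both control groups for 46 of the 95 members, and above 100 in both for 1 member, ENSBTAG00000018785. At least 1 control animal had 0 reads in 22 members. Read sampling alone gives a spread, which was calculated from the Poisson error of the counts. At the median CPM of each control group, it corresponded to an SD of at most 0.54. The SD measured between animals was more than 2 times as large for each of the 95 members in both generations. The selection by an SD of at least 1 nearly fixed this outcome in advance, so that nothing is concluded from it. In 5 members, the sampling SD was 0.5 or above in either generation. Across members, log2 library size had a Spearman correlation between -0.52 and 0.56 with expression in control dams and between -0.38 and 0.45 in control calves, and 0 members reached 0.6 with the same sign in both generations.

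The members were sorted into 4 patterns. A step was called when the sorted values had a gap of at least 1 log2 unit with at least 2 animals on each side, in dams and in calves, and the gaps of both generations had a common interval. A step was on/off when the median of all control animals below it, dams and calves pooled, was less than 0.5 CPM, otherwise it was high/low. Among the 95 members, 2 were on/off and 2 were high/low. Over all 11762 genes, 13 genes (0.111%) had such a step. A gap of at least 1 was found for 18 members in control dams, for 18 in control calves and for 31 in either group, so that most gaps in 1 generation had no counterpart at the same level in the other. Of the other members, 64 fell below an SD of 1 in at least 1 generation when the 2 animals farthest from the median were left out. Leaving out these animals lowers every SD, and in 59 of the 64 the smaller of both SDs was below 1.2 with all animals. They are called members below the limit without 2 animals, and nothing is read from this about their pattern. The remaining 27 members kept an SD of at least 1 in both generations and are called continuous, which means only that no step at a common level was found. Of these 27, 7 had an empty gap of at least 1 in control dams and 6 others in control calves, and 14 had none.

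ENSBTAG00000052397 (high/low) had the widest common gap, with 1.67 log2 units. In control dams, 2 of 19 animals were high, with 140 and 263 CPM, and the other 17 had 6.2 to 29.3 CPM. In control calves, 5 of 30 animals were high, with 93.9 to 186 CPM, and the other 25 had 1.81 to 15.8 CPM. No control animal was between these levels. In the dams with direct HS, which were not used for the selection, 3 of 12 animals had 141, 143 and 162 CPM, and the other 9 had 4.94 to 36.3 CPM. The 3 high dams were thus within the range of the high control dams, whereas 2 of the 9 others were inside the lower part of the gap. The share of high animals was 11% in control dams (exact binomial 95% interval 1.3 to 33.1%), 25% in dams with direct HS (5.49 to 57.2%) and 16.7% in control calves (5.64 to 34.7%). The step was placed in the same control animals, with at least 2 on each side, so that the intervals of the control groups are only descriptive. A difference between groups was not tested.

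ENSBTAG00000003989 (on/off) was expressed in most animals and low or nearly absent in the others, with a median of 0.475 CPM over the low control animals of both generations. In control dams, 17 of 19 animals had 6.01 to 18.7 CPM, and 2 had 0.88 and 1.5 CPM, which is above the limit of 0.5 CPM for dams alone. In control calves, 25 of 30 had 2.90 to 23.5 CPM, and 5 had 0 to 0.946 CPM. In dams with direct HS, 10 of 12 had 6.85 to 20.9 CPM, and 2 had 0 and 0.555 CPM. The animals at the lower level had 0 to 8 reads of this gene in libraries of 5269797 to 9957039 reads. The gap was empty also in the dams with direct HS, and the median of the expressing animals was 10.2 CPM in control dams, 10.1 CPM in control calves and 11.4 CPM in dams with direct HS.

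ENSBTAG00000007772, the other on/off gene, had a low level throughout. It was at 0 and 0.167 CPM in 2 control dams and at 0.742 to 7.40 CPM in the other 17. In control calves, 4 of 30 had 0 to 0.437 CPM and 26 had 1.54 to 15.4 CPM. Among the dams with direct HS, 2 of 12 had 0.168 and 0.220 CPM and 10 had 1.12 to 4.85 CPM. The lower level stands for 0 to 4 reads per library and the upper for 5 reads or more, and the step therefore rests on small counts.

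ENSBTAG00000011027 (high/low) was low in 2 of 19 control dams (2.95 and 5.80 CPM, the others 16.2 to 70.4 CPM), in 9 of 30 control calves (4.12 to 12 CPM, the others 25.7 to 100.5 CPM) and in 4 of 12 dams with direct HS (0.464 to 8.07 CPM, the others 36.2 to 69.8 CPM). No animal of the 3 groups lay in the common gap. Their median log2 CPM was 3.0 lower in control dams, 2.56 lower in control calves and 3.58 lower in dams with direct HS. The share of high animals was 89.5% (66.9 to 98.7%) in control dams, 70.0% (50.6 to 85.3%) in control calves and 66.7% (34.9 to 90.1%) in dams with direct HS. Here too, the intervals of the control groups are only descriptive, and a difference between groups was not tested.

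Few animals had the rarer level in more than 1 of these 4 genes. Counted over the 4 genes, 12 of 19 control dams had the common level in all, 6 had 1 rare level and 1 had 2. In control calves, 10 of 30 had none, 17 had 1 and 3 had 2. In dams with direct HS, 2 of 12 had none, 9 had 1 and 1 had 2. No animal of the 3 groups had the rare level in more than 2 of the 4 genes. ENSBTAG00000011027 and ENSBTAG00000003989 were low together in 0 animals. Whether this is fewer than independent levels would give was not tested.

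A further member came close to a step with balanced groups. It is named here after its values were seen. ENSBTAG00000006383 was counted as continuous, because its widest gap in control dams was 0.89. In control dams, 11 of 19 animals had 13.8 to 27.9 CPM and 8 had 51.9 to 162 CPM, with 1 dam (HS-IU_1711, 51.9 CPM) lying alone between the levels and the next at 94.1 CPM. In control calves, 17 of 30 had 7.26 to 26.2 CPM and 13 had 69.2 to 168 CPM. In the dams with direct HS, 4 of 12 had 14.3 to 21.1 CPM and 8 had 90.8 to 201 CPM, with a gap of 2.09 log2 units between them. The lower and upper levels were thus alike in dams and calves, and both levels were common in all groups.

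**Figure D2:**
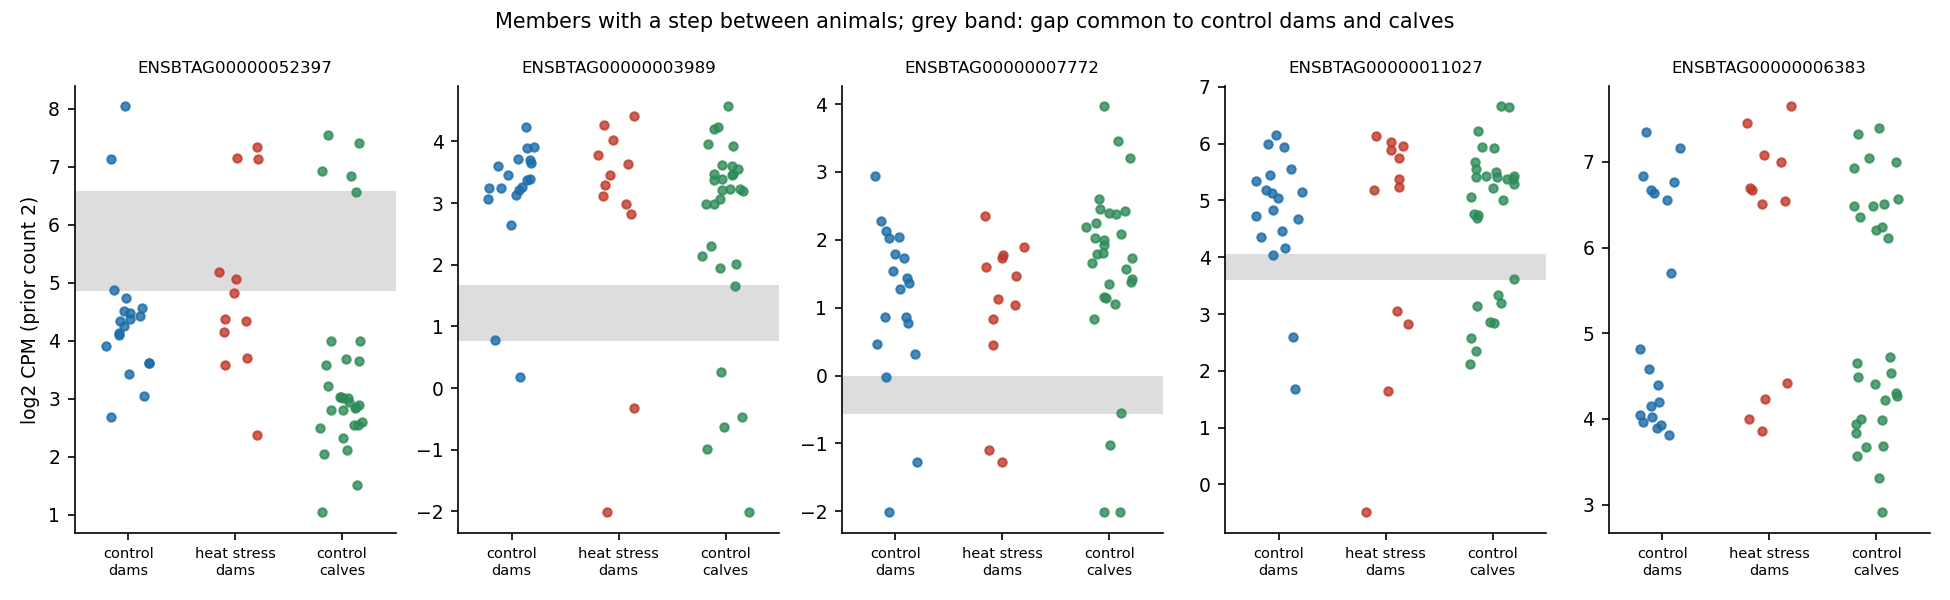
Log2 CPM (y axis, prior count 2) of each animal for the 4 members with a step and for ENSBTAG00000006383, by group (19 control dams in blue, 12 dams with direct HS in red, 30 control calves in green). Each point is 1 animal, and the horizontal position within a group is random. The grey band is the gap common to control dams and control calves. It is empty for the dams with direct HS in 3 genes and holds 2 of them in ENSBTAG00000052397.

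Among the 27 continuous members, expression had a wide range. ENSBTAG00000008182 had the largest value of the smaller of its SDs (2.07 in control dams and 1.81 in control calves). It ranged from 2.76 to 565 CPM (median 14.1) in control dams, from 4.86 to 586 CPM (median 21.2) in control calves and from 11.5 to 565 CPM (median 43.3) in dams with direct HS. The highest animal had more than 100 times the level of the lowest in both control groups, and the 3 groups overlapped over nearly the whole range. In control calves, its 2 highest animals (474 and 586 CPM) were separated from the others (at most 164 CPM) by 1.53 log2 units, while the widest gap in control dams was 0.94. Its neighbour in this order, ENSBTAG00000037558, ranged from 0.428 to 22.3 CPM (median 0.890) in control dams and from 0.0884 to 32.4 CPM (median 1.25) in control calves. In control dams, 11 animals had at most 0.924 CPM and 8 had at least 3.14 CPM, with a gap of 1.53 log2 units, and the widest gap in calves was 0.94 and lay at another level. ENSBTAG00000052826 ranged from 0.628 to 30.3 CPM (median 5.67), from 0.145 to 65.1 CPM (median 3.84) and, in dams with direct HS, from 1.01 to 28.7 CPM (median 5.79). ENSBTAG00000004322 was the most abundant of the continuous members named here, with 29.1 to 2085 CPM (median 88.1) in control dams and 58.9 to 3018 CPM (median 175) in control calves. In ENSBTAG00000008182 and ENSBTAG00000004322, the median CPM was far closer to the lowest than to the highest animal in each control group.

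The next continuous members had many low values. ENSBTAG00000031825 had 0 to 15.5 CPM (median 1.41) in control dams, 0 to 16.9 CPM (median 0.516) in control calves and 0 to 15.6 CPM (median 1.02) in dams with direct HS, with 4, 4 and 3 animals at 0 reads. ENSBTAG00000009725 had 0 to 8.68 CPM (median 0.443) in control dams and 0 to 20.4 CPM (median 0.518) in control calves. In dams with direct HS it did not exceed 0.935 CPM (median 0.284), and its SD was 0.80. Both genes had a gap in 1 control group only. In ENSBTAG00000009725, 25 of 30 control calves had at most 1.13 CPM and 5 had 9.17 to 20.4 CPM, with 2.77 log2 units between them, the widest gap of any member in a control group. In control dams its widest gap was 0.84, with 3 dams from 4.58 to 8.68 CPM above the others. In ENSBTAG00000031825, the gap of 1.5 in control dams lay between the 4 dams at 0 reads and the next at 0.443 CPM, and the widest gap in control calves was 0.61. The other continuous members of the 10 with the largest SDs were ENSBTAG00000009012, ENSBTAG00000018941, ENSBTAG00000002278 and ENSBTAG00000037421, with SDs from 1.43 to 1.59 in control dams and from 1.45 to 1.61 in control calves. Their medians were between 0.624 and 6.28 CPM in the 3 groups.

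With all animals, the 64 members below the limit without 2 animals had median SDs of 1.10 in control dams and 1.16 in control calves. Some were well above the limit. ENSBTAG00000010069 had SDs of 1.70 and 1.38, and ENSBTAG00000053889 of 1.60 and 1.33. ENSBTAG00000019017 had 1.16 in control dams and 2.08 in control calves. Without the 2 farthest animals, the SD fell below 1 in dams only for 30 of them, in calves only for 12 and in both for 22. In control dams, both farthest animals were above the median in 25 genes, both below in 18 and on either side in 21. In control calves, both were above in 12 genes, both below in 27 and on either side in 25. High and low animals thus both contributed, and both farthest animals were above the median in dams and in calves for 4 genes and below for 9. Some animals were repeatedly at an extreme. Of the 95 members, 18 were highest in the control dam HS-IU_1463, which was highest in 7.16% of all genes, and 20 were lowest in the control calf HS-IU_2013, which was lowest in 2.36% of all genes. Of these members, 16 of the 18 and 15 of the 20 belonged to 1 set of 23 genes that varied together, described further on, and thus were not independent of each other. HS-IU_1463 was also lowest in 7 members, compared with 4.17% of all genes. The control dam HS-IU_1711 was lowest in 12 members, 9 of them in the set of 23 genes, compared with 7.35% of all genes. It was highest in 10 of the 95 members, which was not above its share of all genes (11.7%). The control calf HS-IU_2015 was highest in 12 of the 95 members, also not above its share of all genes (15.2%).

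The dams with direct HS were used to examine whether the spread was present in animals outside the selection. In these 12 dams, 46 of the 95 members had an SD of at least 1, compared with 208 of all 11762 genes (1.77%). All genes include the members, and they were not matched to the members in expression, which was low in many members. The SD of the members ranged from 0.45 to 2.26 with a median of 0.997, and the median of all genes was 0.30. All 95 members were above this median. By pattern, an SD of at least 1 was found for all 4 step genes, for 23 of 27 continuous members and for 19 of 64 members below the limit without 2 animals. The median SD was 1.21 in the continuous members and 0.92 in the members below the limit without 2 animals. Thus, the wide spread between animals was seen again in other dams, and the SD fell short of the limit in 49 members. The dams with HS belonged to the same study and may be related to the control animals.

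**Figure D3:**
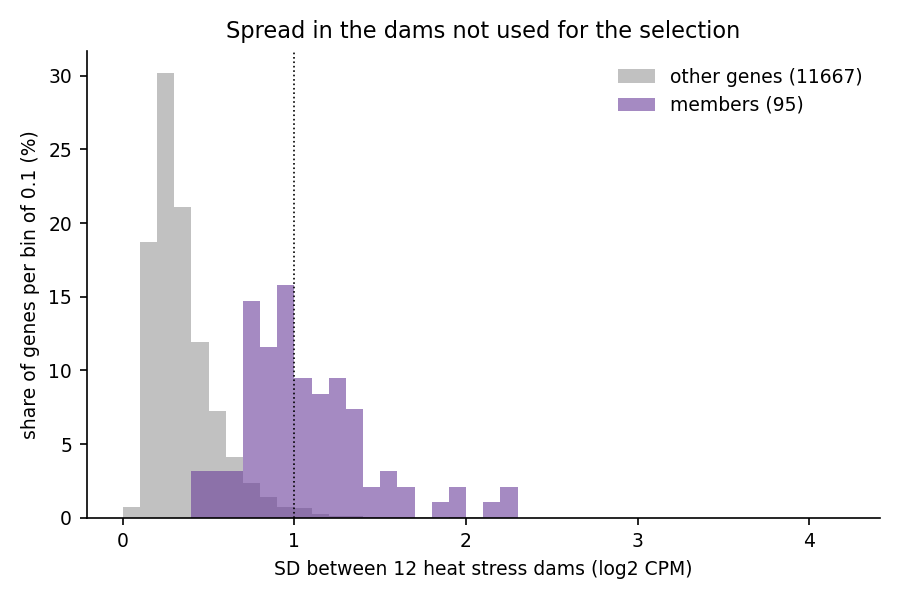
Share of genes (y axis, % per bin of 0.1) by the SD of log2 CPM between 12 dams with direct HS (x axis), for 95 members in violet and 11667 other genes in grey. The dotted line marks an SD of 1, which 46 members exceed. The members lie to the right of the bulk of the other genes.

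Members that varied together were found by Spearman correlation within each control group. Of 4465 pairs of members, 110 had a correlation of at least 0.7 both in control dams and in control calves, and 33 members were in such a pair. The median over all pairs was 0.03 in control dams and 0.06 in control calves, and single pairs lay between -0.77 and 0.98 (dams) or between -0.65 and 0.96 (calves). The linked pairs formed a set of 23 genes, a set of 4 genes and 3 separate pairs (ENSBTAG00000047411 with ENSBTAG00000033268, ENSBTAG00000008951 with ENSBTAG00000015592, and ENSBTAG00000007307 with ENSBTAG00000053356). None of the 4 step genes was in a set. These correlations are descriptions, since all genes of an animal share the library.

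In the set of 23 genes, 103 of 253 pairs were linked, and the median correlation over all its pairs was 0.79 in control dams and 0.70 in control calves. The genes with the highest mean correlation to the others were ENSBTAG00000018785, ENSBTAG00000011182, ENSBTAG00000001112 and ENSBTAG00000055296. ENSBTAG00000018785 was also the most abundant member, with 293 to 3346 CPM (median 940.0) in control dams, 182 to 5881 CPM (median 1681) in control calves and 464 to 2659 CPM (median 1139) in dams with direct HS. ENSBTAG00000001112 had 2.40 to 33.7 CPM (median 7.66), 3.87 to 60.2 CPM (median 16.4) and 7.03 to 21.1 CPM (median 11.3) in the same groups. Both genes had their highest control dam in HS-IU_1463. Averaged over the 23 genes, log2 CPM ranged from 1.83 to 5.06 in control dams, from 1.51 to 5.51 in control calves and from 2.7 to 4.47 in dams with direct HS. The range was narrowest in the latter. They were the smallest group, and the only one not used to select the genes by their spread, so that the ranges cannot be compared. The mean was highest in HS-IU_1463 and lowest in HS-IU_1725 among control dams, and highest in HS-IU_2032 and lowest in HS-IU_2013 among control calves. Of the 23 genes, 22 were members below the limit without 2 animals and 1 (ENSBTAG00000018941) was continuous. A further 160 of the 11739 other genes followed the mean of the set with a correlation of at least 0.7 in both control groups, and 0 of these were members. The set was thus part of a larger group of genes that varied together. Library size had a correlation of -0.03 with the mean of the set in control dams and of -0.19 in control calves. With no gene names, the set was not compared with markers of leukocyte types, and the part of cell type shares in it was not tested.

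The set of 4 genes consisted of ENSBTAG00000004322, ENSBTAG00000008182, ENSBTAG00000010069 and ENSBTAG00000037558, of which 3 were continuous. The median correlation over its 6 pairs was 0.84 in control dams and 0.73 in control calves. ENSBTAG00000010069 had 8.87 to 834 CPM (median 23.8) in control dams and 10 to 616 CPM (median 29.3) in control calves. The order of the animals in this set was in part another than in the 23 genes. HS-IU_1725, the lowest control dam in the 23 genes, was the highest in the 4 genes, and HS-IU_2044 was the highest control calf. Other animals were high in both sets, such as the control dam HS-IU_1577 (mean log2 CPM 4.64 in the 23 genes and 7.67 in the 4 genes) and the control calf HS-IU_2036 (5.41 and 6.17). The correlation between the means of both sets was 0.13 in control dams, 0.39 in control calves and -0.55 in dams with direct HS. Library size had a correlation of 0.44 with the mean of the 4 genes in control dams and of -0.29 in control calves.

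**Figure D4:**
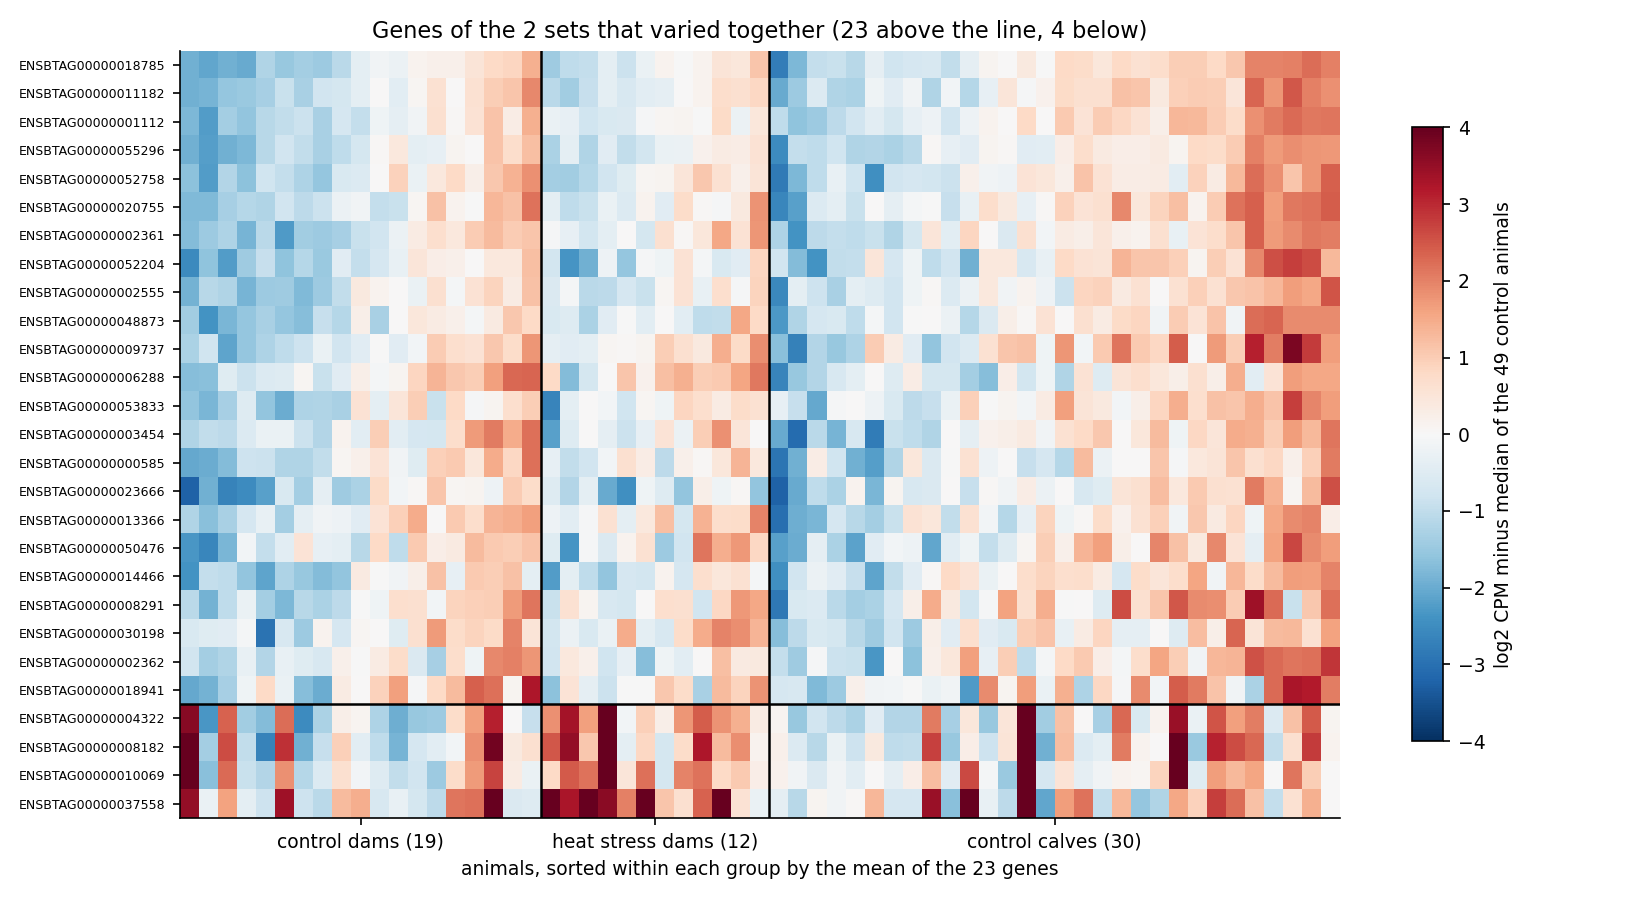
Log2 CPM minus the median of the 49 control animals (colour, from -4 in blue to 4 in red) for the 23 genes (rows above the line) and the 4 genes (rows below the line) that varied together. Columns are animals, sorted in each group by the mean of the 23 genes. The rows of the 23 genes change from blue to red from left to right in each group, and high values of the 4 genes appear both in columns that are low and in columns that are high in the 23 genes.

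The strongest pair of each set was tested in the 12 dams with direct HS, which took no part in forming the sets. ENSBTAG00000004322 and ENSBTAG00000008182 had a Pearson correlation of 0.947 (two-sided permutation test with 100000 resamples, p = 2e-05, the smallest value these can give, adjusted p = 8e-05 over 4 tests) and a Spearman correlation of 0.923 (permutation p = 4e-05, adjusted p = 8e-05). Without the 2 dams farthest from the median, Pearson's r was 0.899. ENSBTAG00000018785 and ENSBTAG00000001112 had a Pearson correlation of 0.739 (permutation p = 0.0064, adjusted p = 0.0064) and a Spearman correlation of 0.783 (permutation p = 0.00422, adjusted p = 0.00563), and r was 0.767 without the 2 farthest dams. Both pairs were therefore correlated also in these dams. Over all pairs of a set, the median Spearman correlation in the dams with direct HS was 0.54 for the 23 genes and 0.58 for the 4 genes, with lowest values of -0.28 and 0.35.

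Direct HS was compared with control in dams by edgeR's quasi-likelihood test over 11645 genes whose mean count in the 31 dams was 14 or more. Of the 95 members, 83 were tested, and 12 had a lower mean count (7.19 to 13.7). After Benjamini-Hochberg adjustment, 1 member was different at an adjusted p below 0.05, compared with 310 of all genes (2.66%). At an unadjusted p below 0.05 there were 8 members, 4 higher and 4 lower with HS, compared with 2248 of all genes (19.3%). Neither count of members exceeded the share of all genes. The median log2 fold change was -0.01 in the members and -0.0022 in all genes, with 41 members higher and 42 lower. The median SE of the log2 fold change was 0.39 in the members and 0.11 in all genes, so that changes of the size common in other genes were not detectable in the members. The control dams served both in the selection and in this comparison, and HS cannot be told apart from the season of sampling here.

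The member that passed the test was ENSBTAG00000037558 of the set of 4 genes. In dams with direct HS it ranged from 0.935 to 126 CPM (median 10.1), and in control dams from 0.428 to 22.3 CPM (median 0.890). All 12 dams with direct HS were above the median of the control dams and 4 were above every control dam, but the ranges overlapped between 0.935 and 22.3 CPM. The log2 fold change was 2.64 (SE 0.64, n = 12 and 19, edgeR adjusted p = 0.0211). Without the dam HS-IU_1460 or HS-IU_1837, both with direct HS and the highest values (77.7 and 126 CPM), the log2 fold change was 2.39 and 2.13 (edgeR adjusted p = 0.0534 and 0.0702), and with limma-voom it was 2.25 (adjusted p = 0.0929). The direction thus was the same, without passing the test.

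The other genes of the set were also higher on average, but did not pass the test. ENSBTAG00000010069 had 17.3 to 2975 CPM (median 87.1) in dams with direct HS, with a log2 fold change of 1.88 (SE 0.72, edgeR adjusted p = 0.146). Its second highest dam had 157 CPM, so that 1 animal, HS-IU_1835, stood far above the rest. ENSBTAG00000004322 had 157 to 3968 CPM (median 550) in dams with direct HS, with a log2 fold change of 1.18 (SE 0.60, edgeR adjusted p = 0.276), and all 12 were above the median of the control dams. For ENSBTAG00000008182 the log2 fold change was 0.61 (SE 0.68, edgeR adjusted p = 0.667). Without HS-IU_1835, the log2 fold changes were -0.05 for ENSBTAG00000010069, 0.62 for ENSBTAG00000004322 and -0.02 for ENSBTAG00000008182, and 2.71 for ENSBTAG00000037558 (edgeR adjusted p = 0.0233). The fold changes of ENSBTAG00000010069 and ENSBTAG00000008182 thus depended on single dams in both groups. Without the control dam HS-IU_1725, which was highest in this set, they were 2.82 for ENSBTAG00000010069, which passed the test (edgeR adjusted p = 0.0149), and 1.32 for ENSBTAG00000008182, which did not (edgeR adjusted p = 0.230). With all dams, 11 of the 12 dams with direct HS were above the median of the control dams in both genes.

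**Figure D5:**
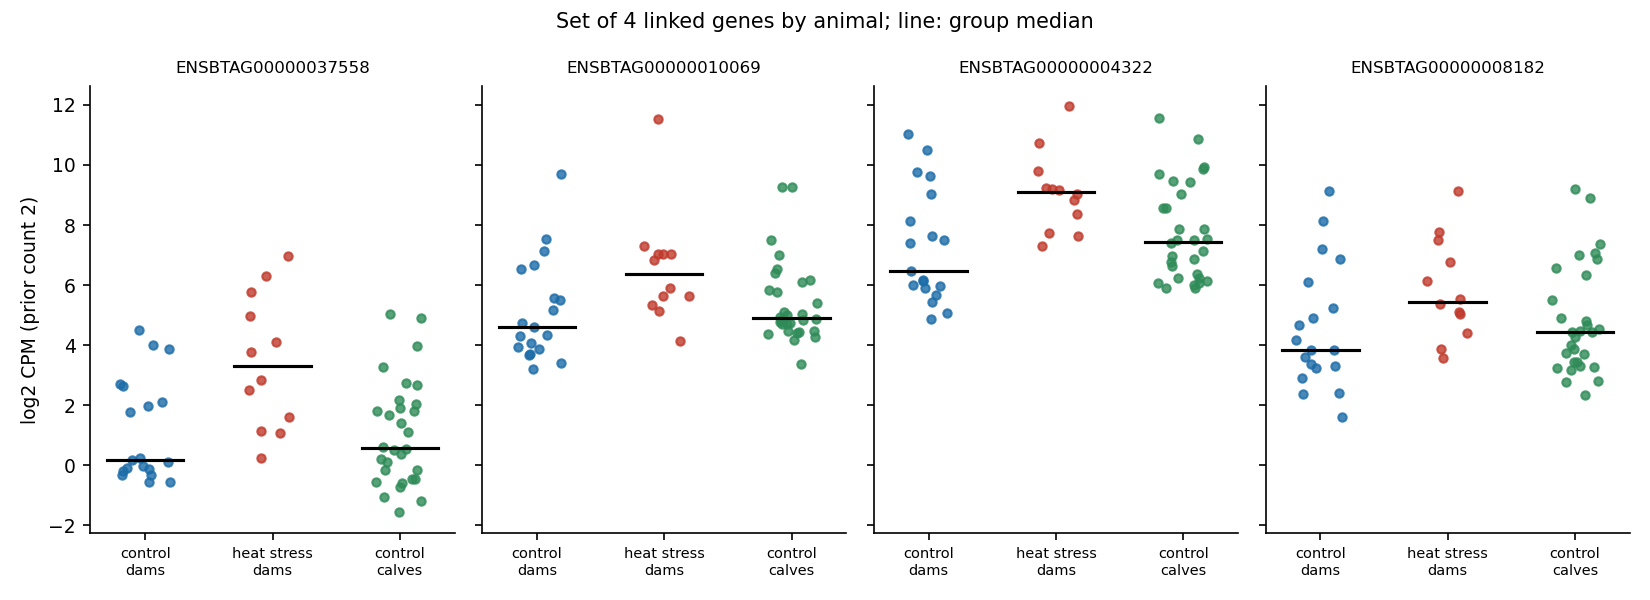
Log2 CPM (y axis, prior count 2) of the 4 genes that varied together in 19 control dams (blue), 12 dams with direct HS (red) and 30 control calves (green). Each point is 1 animal and the line is the group median. In all 4 genes the median of the dams with direct HS lies above that of the control dams, and the groups overlap.

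The members with the next lowest adjusted p after ENSBTAG00000037558 were ENSBTAG00000046409 and ENSBTAG00000018294, a gene of very low expression. ENSBTAG00000046409 had no linked pair with the set of 4 genes, but it was 1 of 5 genes, and the only member among them, that followed the mean of this set with a correlation of at least 0.7 in both control groups (0.83 in dams and 0.71 in calves). ENSBTAG00000046409 had 8.86 to 423 CPM (median 33.9) in dams with direct HS and 7.86 to 89.1 CPM (median 16.1) in control dams, with a log2 fold change of 1.35 (SE 0.44, edgeR adjusted p = 0.0911). The value of 423 CPM belonged again to HS-IU_1835, the second was 65.7 CPM, and without this dam the log2 fold change was 0.43. Without the control dam HS-IU_1725, the highest control dam in this gene, it was 1.58 and passed (edgeR adjusted p = 0.0422). ENSBTAG00000018294 had 0.139 to 2.51 CPM (median 0.995) with direct HS and 0.140 to 5.94 CPM (median 1.75) in control dams, with a log2 fold change of -1.11 (SE 0.37, edgeR adjusted p = 0.0962). The groups overlapped in both genes, and neither passed the test with all dams. Of the 20 tested genes of the set of 23, 0 passed by edgeR, DESeq2 or limma-voom, with log2 fold changes from -0.50 to 0.55. An unadjusted p below 0.05 was found for 0 of them by edgeR, 0 by DESeq2 and 2 by limma-voom. Of all genes, 2.66% passed by edgeR and 19.3% had an unadjusted p below 0.05 by edgeR. The unadjusted shares of all genes by DESeq2 and limma-voom are not given here.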

How the data were processed

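Per the labels and the paper's methods, the authors used cutadapt 4.2 for trimming and STAR 2.7.11a (GeneCounts) for mapping of single-end reads on ARS-UCD1.2, and deposited raw counts of reads per gene. The strand column and the annotation release are not given in the sources used here. Read totals were 4340680 to 19584521 per library. TMM factors and log2 CPM (prior count 2) were computed with edgeR 4.0.16 in R 4.3.3. The members and lists were chosen with earlier results of these data known. Direct HS was tested by glmQLFTest without covariates, because those of the study are not in the labels; SE was the log2 fold change divided by the square root of F. Correlations were tested with scipy 1.17.1. Nothing in the labels says that replicates share an animal. Alternatives used DESeq2 1.42.0, limma 3.58.1 and mclust 6.1.1. The selection, the step rule and the test were run on simulated data, and the outcomes are not reported here. In the simulated steps both levels were about equally common, whereas the rarer level of the step members was held by few animals. The simulation thus does not check such steps. The 204 marker and family symbols of the fixed lists matched 0 genes, so the planned comparisons with cell type markers and promoters were not made. Genes named in the text were the step members, the 10 continuous members with the largest smaller SD, members called in HS, 3 on each side of the SD limit and 4 per linked set, and the next 2 members after the called one, the genes at the limit of the means, the 3 separate linked pairs, ENSBTAG00000053889, ENSBTAG00000019017 and ENSBTAG00000006383 were added after their values were seen. HS-IU_1804 and HS-IU_2048 were in no group comparison. Columns of samples not used numbered 0. Intervals cover counting error only.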

Additional observations from a re-analysis of the deposited data

Results flagged for a closer look

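HS-IU_1804, the dam without HS status in the labels, was outside the comparisons, and the study left it out because it clustered with the calves. In 16 of the 95 members its log2 CPM was above that of every control dam, and in 5 it was below. Over all 11762 genes it was above every control dam in 2461 (20.9%), and below every control dam in 2656 (22.6%), so neither count of members was above this background. It was above every control calf in 10 members, compared with 1263 of all genes (10.7%). In the step genes it was at the high level of ENSBTAG00000011027 (102 CPM) and ENSBTAG00000003989 (5.68 CPM) and at the low level of ENSBTAG00000052397 (3.85 CPM) and ENSBTAG00000007772 (0.183 CPM).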

How the results depend on the processing

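The number of members (95), of step genes (4), of members with an SD of at least 1 in dams with direct HS (46) and of members in linked sets (27) changed with the prior count, the scale and the filter, and the number of step genes changed also with the step rule and the measure of spread. A prior count of 0.5 gave 138 members, 93 of them shared, with 9 steps and 82 with the SD in dams with direct HS. A prior count of 5 gave 60 members (52 shared), with 14 in linked sets. Variance-stabilised values gave 19 members (15 shared), with 9 and 7 for SD and sets. A mean count of at least 28 gave 62 members, one of at least 7 gave 7 steps, and no filter gave 150 members, 8 steps and 77 with the SD. With the scaled median absolute deviation, 90 members (59 shared) had 0 steps. A gap of at least 0.75 gave 10 steps, of 1.5 gave 1, and 3 animals on each side gave 0, since each of the 4 genes had 2 control dams at the rarer level. With library sizes alone and with a prior count of 5, 4 steps were found, 2 of them shared, and with variance-stabilised values 3, 1 of them shared. A mixture of 2 components by BIC also gave 4, but only 2 were shared (ENSBTAG00000003989 and ENSBTAG00000052397), and ENSBTAG00000006383 was among the others. A step that allowed 1 animal inside a gap of 1.5, chosen after seeing the data like the alternatives of the sets, gave 5, the fifth being ENSBTAG00000006383. Linking at a correlation of 0.8 left 11 members in sets. RLE factors, library sizes alone and the 2 settings without calves HS-IU_2015 or HS-IU_2008, HS-IU_2010 and HS-IU_2015 kept all 4 counts within 1.5 times, and the cause of the other shifts was not tested. In direct HS, the 310 genes became 506 with DESeq2 and 136 without a filter, and 130 to 599 with 1 dam left out. The 1 member became 0 with limma-voom, where 334 of all genes passed, and 0 to 3 with 1 dam left out. Of the 83 tested members, 11 had an unadjusted p below 0.05 by limma-voom, 8 by edgeR and 10 by DESeq2. By edgeR, 19.3% of all genes had one, and these shares by DESeq2 and limma-voom are not given here. ENSBTAG00000037558 had log2 fold changes of 2.13 to 3.01 with 1 dam left out (edgeR adjusted p = 0.00764 to 0.0702). No paired analysis was possible because the labels pair no animals across groups. Low counts limit the step of ENSBTAG00000007772, and 12 members were not tested for HS.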

Other observations

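HS-IU_2048, the calf labelled with HS, was above every control calf in 0 and below in 3 of the 95 members. Over all 11762 genes, it was above every control calf in 622 (5.29%) and below in 575 (4.89%). It was at the low level of ENSBTAG00000011027 (8.92 CPM) and ENSBTAG00000052397 (10.1 CPM) and at the high level of ENSBTAG00000003989 (6.05 CPM) and ENSBTAG00000007772 (6.50 CPM).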
